A study of Homo sapiens with 6 samples.

Results

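The 43 genes described here encode proteins of the G2 phase and of mitosis, and were chosen by gene symbol. All 43 were found by symbol among the 30735 genes of the deposited table. The RNA came from SET-2, an established cell line grown out of a human megakaryoblastic leukaemia, which bears an activating JAK2 mutation and often serves to model myeloproliferative neoplasms. The 6 libraries formed 2 groups of 3, namely SET-2 cells given placebo, called control here, and SET-2 cells treated with CPL. The labels give no dose, time, vehicle or identity for CPL, and do not say whether replicates were separate cultures, so the p-values measure the spread between these libraries, which may be technical. A single cell line was used, and no line with another genotype.

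Cells that prepare to divide build up cyclin A and cyclin B, which bind the kinase CDK1 and carry the cell into mitosis. There the kinetochore ties each chromosome to the spindle, motor proteins of the kinesin family shape the spindle and move chromosomes, the checkpoint holds anaphase until all chromosomes are attached, and the cleavage furrow then parts the daughters. Many of these genes are transcribed in late S phase and G2 under the MuvB complex with B-MYB and FOXM1. In resting or p21-arrested cells the DREAM complex, which also contains MuvB, represses them through a promoter element called the cell cycle genes homology region (CHR), often beside CCAAT boxes bound by NF-Y.

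Promoter sequences are given for 6 members, to show where these letters lie before the gene start. Of the 43 genes, 38 had at least 1 entry in the RefSeq promoter table (GRCh38.p14), which covers 250 bases before to 50 after the gene start, and AURKA, BIRC5, FOXM1, TPX2 and TTK had none. The CHR core was searched as TTTGAA and the CCAAT box as CCAAT, each on both strands and allowing overlaps between them. TTTGAA was in 32 of 48 member promoters (66.7%), against 15.2% of all 35116 promoters in the table and 10.3% of the promoters of other genes tested here. CCAAT was in 37 of 48 (77.1%), against 34.6% of all promoters, and both motifs were in 27 of 48 (56.2%), against 5.9% of all. Of 44 TTTGAA matches, 31 lay within 50 bases of the gene start. The 150 bases before the RefSeq start are printed 5′ to 3′ on the gene's strand, with motif matches on either strand in capitals. CCNB1 (chr5:69167000-69167149, plus strand), CCNB2 (chr15:59104996-59105145, plus) and PLK1 (chr16:23678739-23678888, plus) are core G2 genes, CKS2 (chr9:89311045-89311194, plus) and CKS1B (chr1:154974531-154974680, plus) are paralogs whose levels are compared further on, and KIF2C (chr1:44739687-44739836, plus) had neither motif.
CCNB1: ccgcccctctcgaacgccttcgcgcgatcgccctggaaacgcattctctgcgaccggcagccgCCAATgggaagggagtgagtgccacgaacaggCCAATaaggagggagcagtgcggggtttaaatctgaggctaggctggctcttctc
CCNB2: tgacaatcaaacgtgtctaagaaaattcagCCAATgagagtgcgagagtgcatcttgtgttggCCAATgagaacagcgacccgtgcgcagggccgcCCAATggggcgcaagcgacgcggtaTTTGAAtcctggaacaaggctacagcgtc
PLK1: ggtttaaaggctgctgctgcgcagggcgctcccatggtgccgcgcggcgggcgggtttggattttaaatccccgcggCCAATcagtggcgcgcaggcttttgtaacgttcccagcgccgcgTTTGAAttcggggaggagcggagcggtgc
CKS2: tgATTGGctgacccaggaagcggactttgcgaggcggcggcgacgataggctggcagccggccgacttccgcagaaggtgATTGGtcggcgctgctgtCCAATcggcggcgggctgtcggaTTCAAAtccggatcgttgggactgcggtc
CKS1B: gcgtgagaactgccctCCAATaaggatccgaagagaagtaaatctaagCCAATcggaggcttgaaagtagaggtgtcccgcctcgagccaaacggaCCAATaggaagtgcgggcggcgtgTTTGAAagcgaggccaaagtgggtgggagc
KIF2C: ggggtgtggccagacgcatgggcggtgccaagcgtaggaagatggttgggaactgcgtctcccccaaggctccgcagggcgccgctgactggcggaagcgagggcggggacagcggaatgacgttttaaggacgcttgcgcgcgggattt
CCNB2, PLK1, CKS2 and CKS1B each held a TTTGAA core (as TTCAAA on the printed strand in CKS2) between the start and at least 1 CCAAT box. CCNB1 held 2 CCAAT boxes and no TTTGAA in this window. A match is a description of the letters and not a site of binding.

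**Figure D1:**
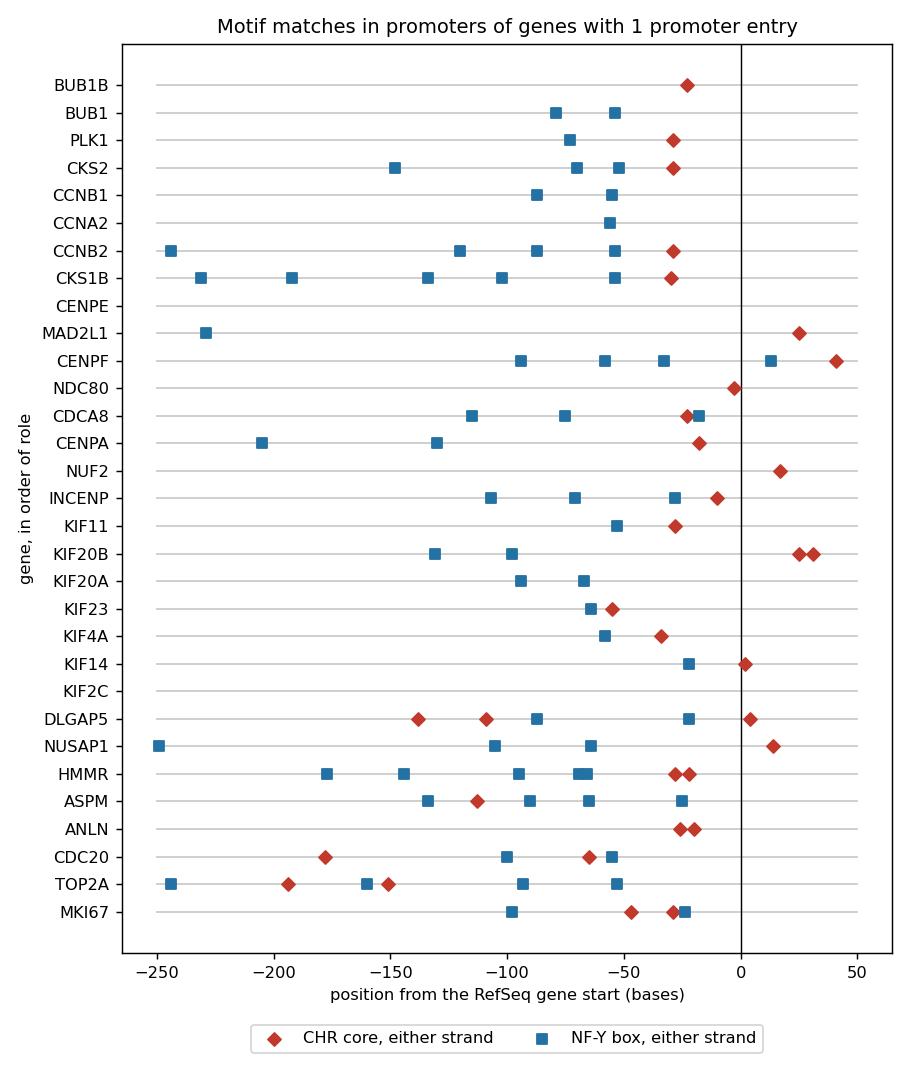
Positions of the CHR core (diamonds) and the NF-Y box (squares) on either strand, in bases from the RefSeq gene start, for tested members with 1 promoter entry. The CHR matches gather near the start, with a median position of −28 over all member promoters, and the NF-Y boxes lie upstream, with a median of −87.

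The libraries held 14578579 to 18204204 reads, as recovered from the FPKM values (read count divided by exon length and by the library's total), and intervals from such depth cover counting error only. Of the 43 genes, 42 passed the expression filter of at least 1 FPKM in at least 3 libraries, and these had 218 to 12118 reads per gene and library. The gene that did not pass was PRC1. Genes of a list of 12 megakaryoblast markers were expressed, with all 11 measured genes of that list at 1 FPKM or more in every library. The other listed gene, PF4, was not found by symbol. The summed level of that list was 522 to 569 FPKM in control and 585 to 749.5 FPKM in CPL. Of 9 measured markers of other blood cells, 6 were under 1 FPKM in every library, and the T cell gene CD3E was at or near 0. The list's summed level was 59.8 to 61.2 FPKM in control and 56.8 to 58.2 FPKM in CPL, and came mostly from LYZ, NKG7 and CD79B. CPL replicate 1 stood apart from the other libraries. The difference of a gene from its mean over all libraries rose with the GC content of its transcript in CPL replicate 1 (rank correlation across genes of 0.736) and declined with it in control replicate 2 (−0.51) and CPL replicate 3 (−0.475). The members' median GC content was 42.9%, against 47.6% for all 13092 tested genes, so the counts are given with this library, without it, and with the GC trend of each library removed.

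Across the set, most mRNA levels were modestly lower in CPL, with log2 changes from −0.52 for CENPE to 0.16 for CKS1B, and no member passed the test over all genes on the values as deposited. The median log2 change of the 42 tested members was −0.27, on the log2(FPKM + 1) scale that is used for all log2 values here, against −0.0051 for all tested genes. The change was negative for 37 members, and 50.8% of all tested genes had a negative change. Every CPL library was below every control library for 22 members, or 52.4%, against 14.9% of all tested genes, and no member had every CPL library above every control library (14.1% of all). In limma with Benjamini-Hochberg adjustment over 13092 genes, 0 members were called lower (0.665% of all genes) and 0 higher (1.09%), with 0.102 as the smallest adjusted p. At an unadjusted p under 0.05, 20 members were lower and 0 higher, where 9.998% of all tested genes were lower. Limma without trend and robust moderation also called 0 members. Lower mRNA in a culture may come from fewer cells in G2 and mitosis or from less RNA per cell, which bulk RNA cannot tell apart.

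With the GC trend removed from each library, 17 members fell and 0 rose, against 6.57% and 7.16% of 13074 tested genes. The 17 were PLK1, AURKA and AURKB among the kinases, CCNA2 and CKS2 among the cyclins and CDK partners, CDCA8, CENPF and MAD2L1 of the kinetochore and centromere, and the motor genes KIF11, KIF20A and KIF23. TPX2 and DLGAP5 of the spindle, ECT2 of cytokinesis, CDC20 and PTTG1 of anaphase onset, and TOP2A completed them. Their changes in that fit ran from −0.39 to −0.23, with limma adjusted p from 0.0103 to 0.0489. The median change of all 42 was −0.23 and 40 were negative (50.1% of all genes). The groups did not overlap for 29 members, with CPL lower, against 18.3% of all genes, and 0 members had CPL higher throughout (18.7%). When CPL replicate 1 was left out as well, 7 members were called lower (4.67% of 12752 genes) and 0 higher (4.96%), and the 7 were CDCA8, KIF11, KIF20A, TPX2, DLGAP5, CDC20 and PTTG1. In that fit 39 members had a negative change (50.6% of all genes), 28 had both CPL libraries below all controls (23.2%) and 0 had both above (23.7%).

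Leaving out CPL replicate 1 without any GC correction called 1 member, CDC20, lower (2.73% of all genes) and 0 members higher (2.84%). The count of 1 is near the background. The change was then negative for 40 members (51.6% of all genes), both CPL libraries were below all controls for 26 (21.5%) and above them for 0 (20.4%), and the median change was −0.22. The number of calls depended on removing the GC trend, while the median change was between −0.35 and −0.2 in the 17 alternatives tried.

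**Figure D2:**
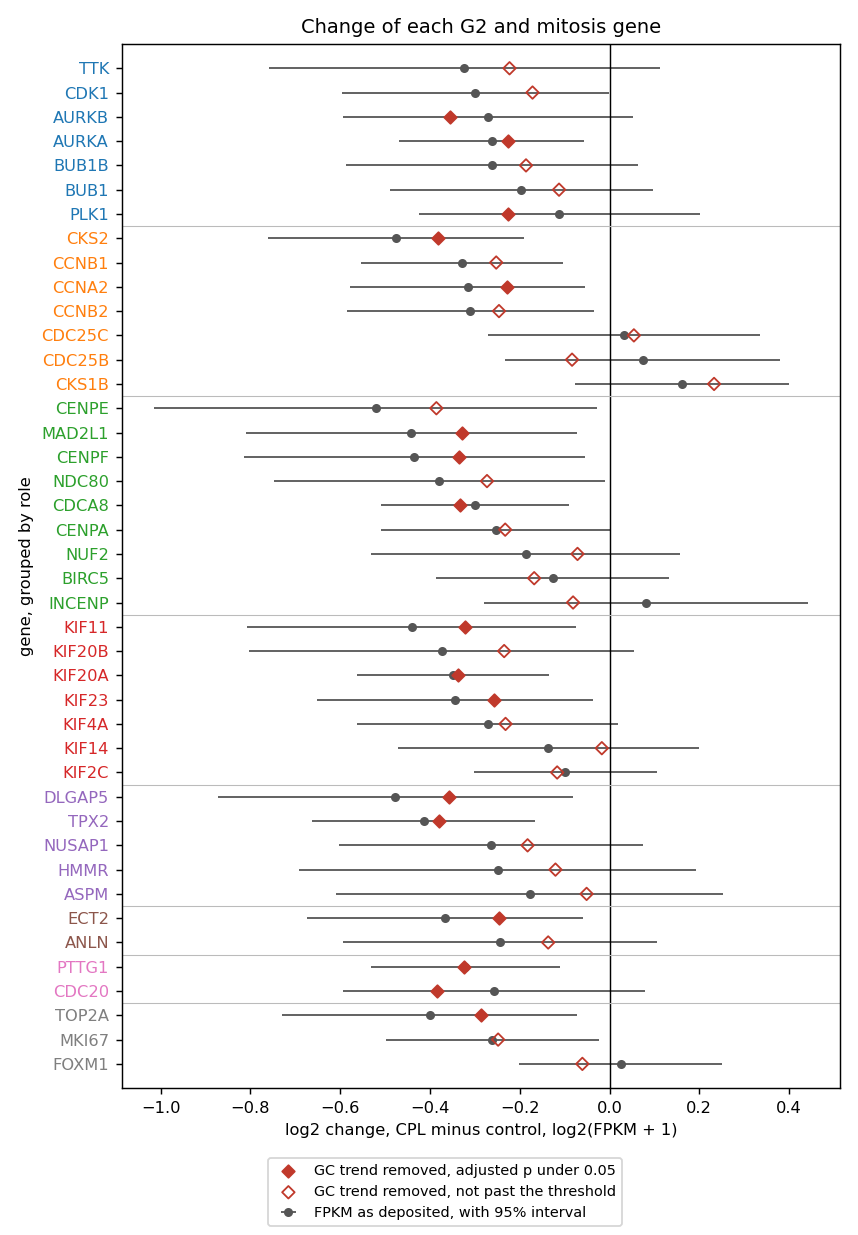
Log2 change (CPL minus control) of each tested member, with the 95% interval of the fit to the values as deposited (grey) and the change with the GC trend removed (diamonds, filled where the limma adjusted p was under 0.05), with genes grouped and coloured by role. The grey points are negative for 37 of 42 members, and 17 diamonds are filled, all left of 0.

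The 3 CPL libraries did not share 1 pattern across the members. Against the control mean, the 42 members had a median difference of −0.50, −0.23 and −0.15 in CPL replicates 1, 2 and 3, respectively. Replicate 1 was the lowest CPL library for 30 members and the highest for 7. Across the 42 members, the difference in replicate 1 followed GC content with a Pearson r of 0.855, against 0.229 in replicate 2 and −0.33 in replicate 3. Among the controls, whose differences are from their own mean, r was 0.028, −0.752 and 0.636 in replicates 1, 2 and 3. These points share a library and its depth. For the 28 members under 47.6% GC the median differences in replicates 1, 2 and 3 were −0.57, −0.24 and −0.15. For the 14 members over it they were −0.091, −0.21 and −0.25. In CPL replicate 1 the AT-rich members lay far lower than the GC-rich ones, while the other CPL libraries were below the control mean in both classes. After removal of the GC trend, the medians over the 42 members were −0.32, −0.20 and −0.19, and 41, 38 and 37 members were under the control mean.

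**Figure D3:**
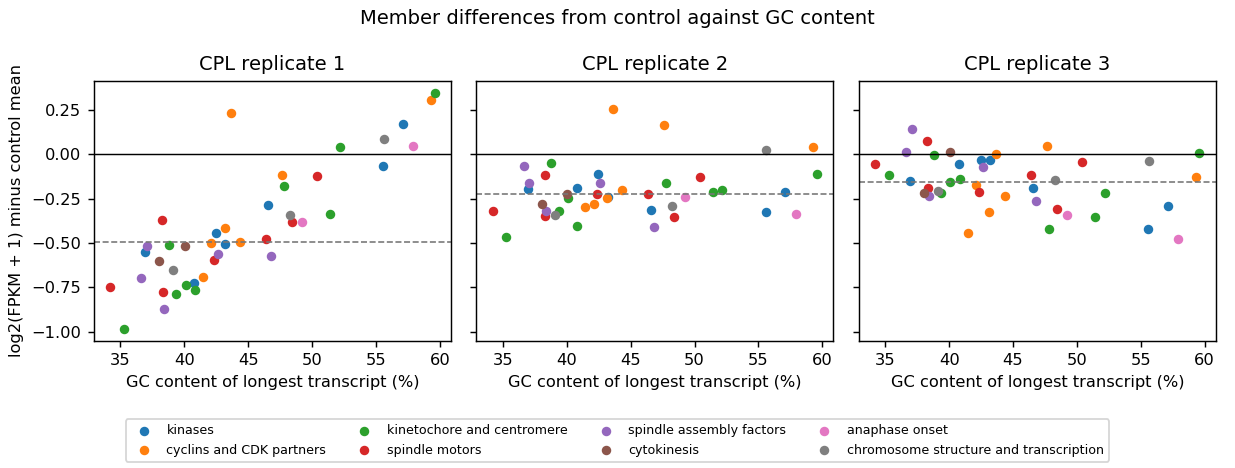
Difference of each tested member from the control mean (log2(FPKM + 1)) against the GC content of its longest transcript in percent, one panel per CPL library, coloured by role, with the library's median dashed. The points climb with GC in replicate 1 (r = 0.855) and show no such slope in replicates 2 (0.229) and 3 (−0.33).

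**Figure D4:**
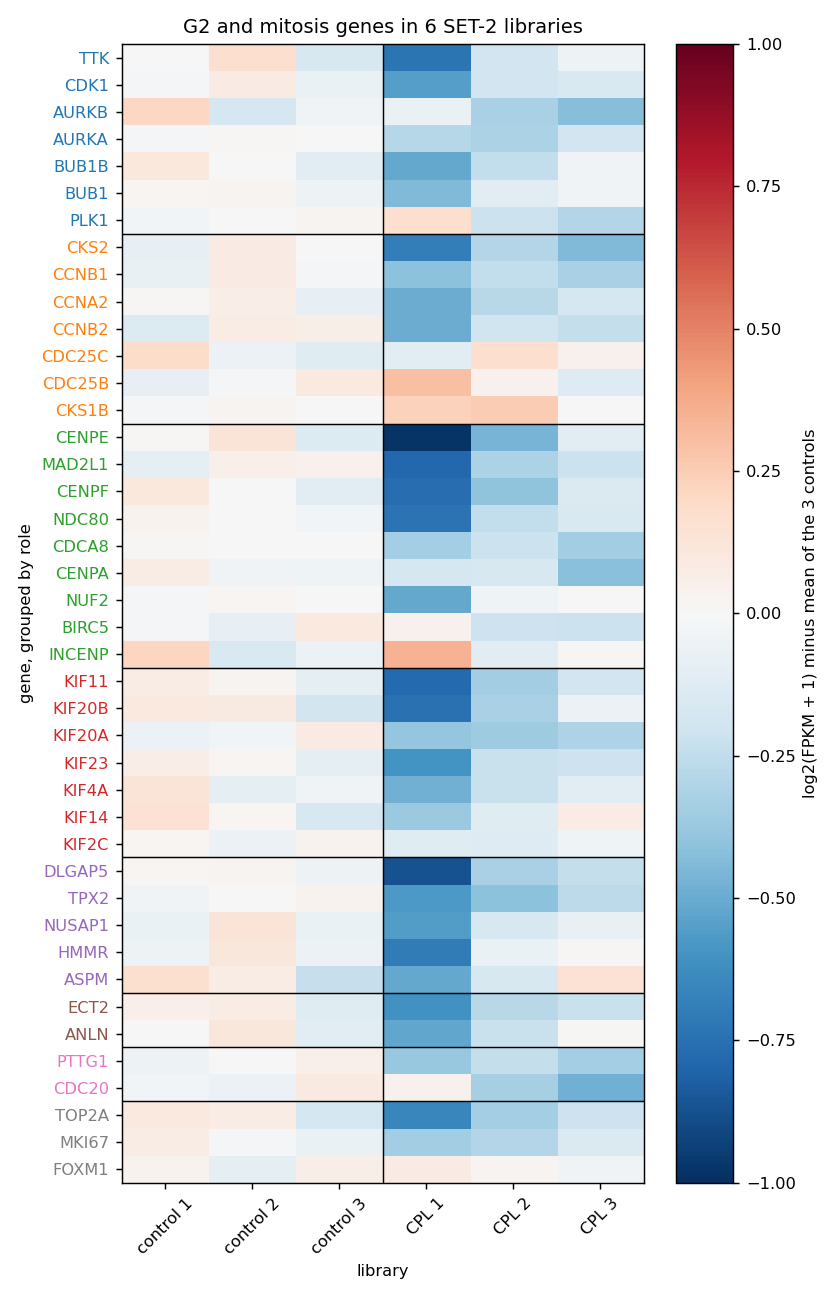
Difference from the mean of the 3 controls (log2(FPKM + 1), colour) for each tested member (rows, grouped and coloured by role) in each library (columns). CPL replicate 1 is the lowest CPL library for 30 of 42 members, and CKS1B, CDC25B, CDC25C, INCENP and FOXM1 are the rows with a positive mean change as deposited.

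Among the kinases all 7 changes were negative as deposited, from −0.32 for TTK to −0.11 for PLK1, with 0 called. The groups did not overlap for 2 (CDK1 and AURKA), against 14.9% of all tested genes with CPL lower throughout. The change of TTK was −0.12 without CPL replicate 1. After GC removal 3 fell, PLK1, AURKA and AURKB. CDK1 (chromosome 10, 60778331 to 60794852, GRCh38), the kinase that drives entry into mitosis, was at 45.05, 48.3 and 43.6 FPKM in control replicates 1 to 3 and at 30.8, 39.8 and 41.0 FPKM in the CPL replicates. The CPL libraries all lay under the controls, and the 2 higher ones came close to them. Its log2 change was −0.30 ± 0.13 (SE, limma adjusted p = 0.255), and −0.17 both with the GC trend removed (limma adjusted p = 0.0778) and without CPL replicate 1 (0.223), a move of over 1.5 times. AURKA, the aurora kinase of centrosomes and spindle poles, had 35.0, 35.7 and 35.5 FPKM in control against 28.9, 28.3 and 30.9 FPKM in CPL. Its controls were tight and the groups lay apart (log2 change −0.26 ± 0.09, limma adjusted p = 0.172, and 0.0394 with the GC trend removed). AURKB, the kinase of the chromosomal passenger complex, had 44.0, 33.8 and 37.1 FPKM in control and 36.3, 30.2 and 28.1 FPKM in CPL, so that the groups overlapped through CPL replicate 1. Once the GC trend was removed they did not overlap and AURKB fell by 0.36 (limma adjusted p = 0.0285). PLK1, the polo kinase of centrosome maturation and cytokinesis, had 27.7, 28.3 and 28.8 FPKM in control and 31.9, 24.3 and 22.9 FPKM in CPL. Here CPL replicate 1 was the highest of all 6 libraries and the other CPL libraries were the lowest, and without replicate 1 the change moved from −0.11 to −0.25 (limma adjusted p = 0.0862), while it was −0.06 without CPL replicate 2 and −0.02 without CPL replicate 3. The checkpoint kinases TTK, BUB1 and BUB1B overlapped between groups as deposited, with ratios of mean FPKM (CPL over control) of 0.801, 0.876 and 0.834. The changes of BUB1 and BUB1B moved from −0.20 and −0.26 to −0.07 and −0.14 without CPL replicate 1.

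The levels of the 3 cyclins were lower in every CPL library, though not past the threshold as deposited. Several of their partners showed no such separation. CCNA2, which encodes cyclin A2, was at 68.6, 71.2 and 64.2 FPKM in control and 47.8, 55.9 and 60.2 FPKM in CPL. CCNB1, which encodes cyclin B1 (chromosome 5, 69167010 to 69178245), had 36.8, 41.3 and 38.6 FPKM in control and 28.9, 32.6 and 30.8 FPKM in CPL. In CCNB2, which encodes cyclin B2, the levels were 31.7, 36.9 and 36.6 FPKM in control and 24.6, 30.3 and 29.5 FPKM in CPL. All 3 cyclins had non-overlapping groups (14.9% of all genes with CPL lower). Their changes were nearly the same, −0.32 ± 0.11, −0.33 ± 0.10 and −0.31 ± 0.12 (SE), with limma adjusted p of 0.189, 0.133 and 0.214. In the fit with GC removed CCNA2 fell by 0.23 (limma adjusted p = 0.0367), and CCNB1 and CCNB2 stayed short of the threshold at 0.0501 and 0.0877. On the other strand EXOSC9 overlaps 9.08% of the exon length of CCNA2 and was at 20.1 to 21.1 FPKM in control and 11.5 to 19.8 FPKM in CPL, and no source used here says whether reads were counted by strand. The ratio of CCNB1 to CCNB2 was 1.11 ± 0.05 in control and 1.10 ± 0.07 in CPL (SD, n = 3 each, exact permutation p = 0.9, two-sided).

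The small CDK-binding proteins CKS1B and CKS2, close paralogs that dock CDK complexes onto substrates, had changes of 0.16 and −0.48. The reads were 50 bases long, and no source used here says how reads that match both genes were counted. CKS2 had 58.0, 65.0 and 61.6 FPKM in control and 37.7, 49.9 and 44.99 FPKM in CPL, with no overlap and the largest change of this group (−0.48 ± 0.12 SE, limma adjusted p = 0.103, and 0.0231 with the GC trend removed). CKS1B had 41.8, 43.3 and 42.3 FPKM in control and 50.1, 50.9 and 42.5 FPKM in CPL, where 2 libraries were above the controls and replicate 3 lay among them. Its change of 0.16 had a 95% interval from −0.08 to 0.40 (limma adjusted p = 0.422). The ratio of CKS2 to CKS1B was 1.39, 1.5 and 1.46 in control and 0.753, 0.982 and 1.06 in CPL. The ratios did not overlap, and the exact permutation test gave p = 0.1, the smallest that 3 against 3 libraries allow, and 0.167 after adjustment over the 5 gene pairs compared. These pairs were chosen after their values were seen. Both promoters hold TTTGAA and CCAAT as printed above. The phosphatase genes CDC25B and CDC25C, whose products activate CDK1, showed changes of 0.07 (95% interval −0.23 to 0.38) and 0.03 (−0.27 to 0.34) and overlapping groups, and the sign of CDC25B turned with the GC trend removed (−0.08) and without CPL replicate 1 (−0.04). CDC25C was the least abundant tested member at 4.70 ± 0.65 FPKM in control (SD, n = 3).

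**Figure D5:**
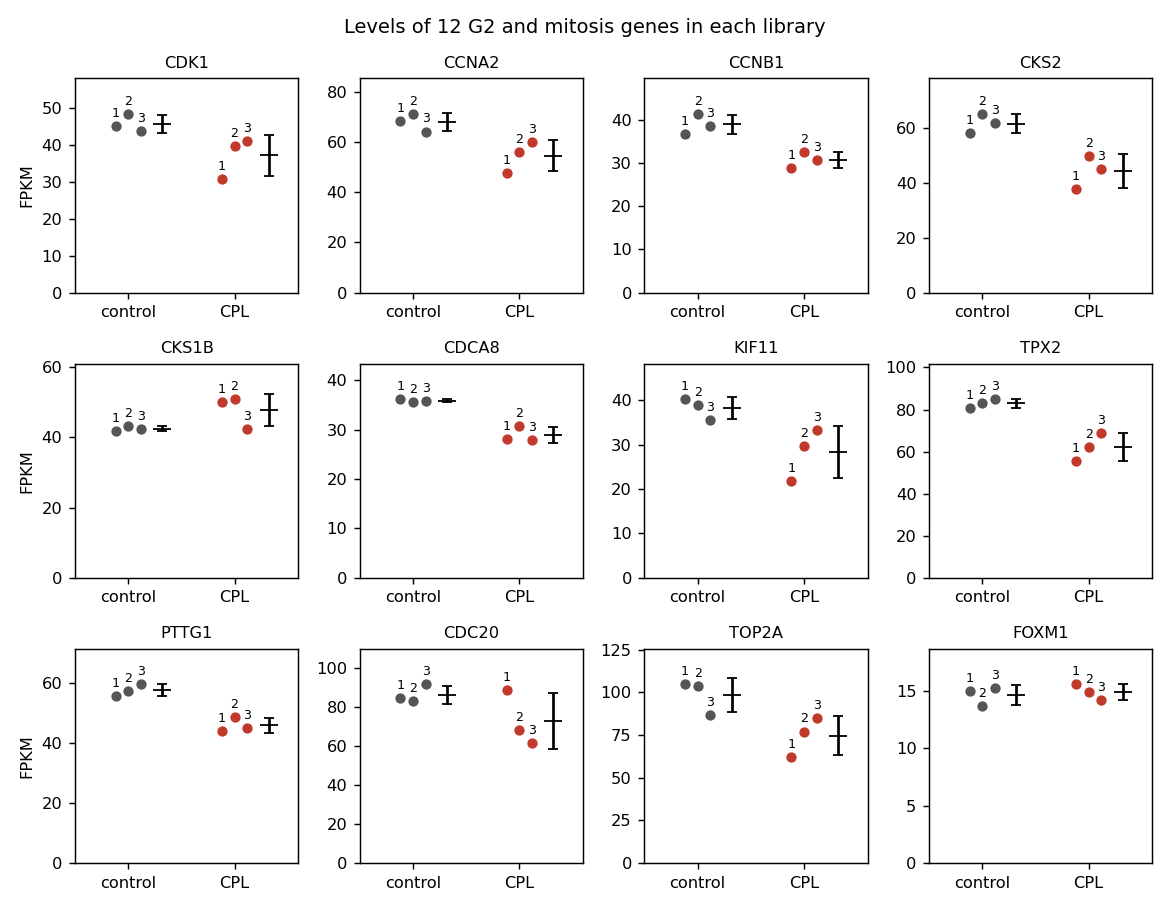
FPKM of 12 members in each library, with replicate numbers beside the points and the mean ± SD of 3 libraries to the right of each group. CPL libraries lie under all controls for CDK1, CCNA2, CCNB1, CKS2, CDCA8, KIF11, TPX2, PTTG1 and TOP2A, and overlap them for CDC20 and FOXM1, while 2 of 3 lie clearly above the controls for CKS1B.

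Of the 9 kinetochore and centromere genes, 8 had a negative change, 5 had non-overlapping groups (14.9% of all genes with CPL lower), and 0 were called as deposited. CENPE, a kinesin that holds chromosomes at the kinetochore, showed the most negative change of all members and also one of the widest spreads, with 16.5, 17.9 and 14.8 FPKM in control and 7.78, 11.6 and 15.0 FPKM in CPL. Its change was −0.52 ± 0.21 (SE, limma adjusted p = 0.236) and −0.29 without CPL replicate 1, so that 1 library moved it by over 1.5 times. CENPF, a large kinetochore protein of G2 cells, had 28.97, 26.9 and 24.9 FPKM in control and 15.4, 20.1 and 24.3 FPKM in CPL (−0.44 ± 0.16, limma adjusted p = 0.21). MAD2L1, the checkpoint protein that restrains CDC20, had 22.6, 25.1 and 24.97 FPKM in control and 13.6, 19.2 and 20.6 FPKM in CPL (−0.44 ± 0.16, limma adjusted p = 0.192). Both fell with the GC trend removed, by 0.33 each (limma adjusted p = 0.0489 and 0.0419), and were −0.27 each without CPL replicate 1, a move of over 1.5 times from the values as deposited. The microtubule-binding NDC80 complex was represented by NDC80 and NUF2, which form a dimer. NDC80 was lower in all CPL libraries (24.8 ± 0.6 against 19.1 ± 4.1 FPKM, SD, n = 3 each), and NUF2 overlapped (17.3 ± 0.2 against 15.3 ± 3.0 FPKM). Their changes moved from −0.38 and −0.19 to −0.20 and −0.02 without CPL replicate 1. The ratio of NDC80 to NUF2 was 1.488, 1.408 and 1.405 in control and 1.223, 1.242 and 1.283 in CPL, with no overlap. The exact permutation test gave p = 0.1, the smallest possible, and 0.167 adjusted over 5 pairs. CENPA, the histone H3 variant that marks centromeres, had 17.01, 15.8 and 15.7 FPKM in control and 14.1, 14.3 and 11.8 FPKM in CPL, with groups apart and a change of −0.25 ± 0.11 (limma adjusted p = 0.26).

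The chromosomal passenger complex corrects faulty attachments, and its 4 genes had changes of −0.30 (CDCA8), −0.27 (AURKB), −0.13 (BIRC5) and 0.08 (INCENP) as deposited, and of −0.33, −0.36, −0.17 and −0.08 with the GC trend removed. CDCA8, which encodes borealin, had 36.1, 35.7 and 35.7 FPKM in control and 28.1, 30.8 and 27.9 FPKM in CPL. Its controls differed by little and the groups lay well apart, with a change of −0.30 ± 0.09 (limma adjusted p = 0.137), and it fell with the GC trend removed (−0.33, limma adjusted p = 0.021) and with CPL replicate 1 left out as well (0.0388). BIRC5, which encodes survivin, had 25.2, 24.2 and 27.5 FPKM in control and 26.4, 22.1 and 21.9 FPKM in CPL, with overlap through CPL replicate 1 and a change of −0.13 (95% interval −0.39 to 0.13). Leaving out 1 library gave from −0.21 (CPL replicate 1) to −0.08 (control replicate 3). INCENP, the scaffold of the complex, showed a change of 0.08 (−0.28 to 0.44), whose sign turned with the GC trend removed (−0.08) and without CPL replicate 1 (−0.05). The ratio of CDCA8 to INCENP was 2.22 ± 0.29 in control and 1.70 ± 0.36 in CPL (SD, n = 3 each), with 1 CPL ratio among the controls (exact permutation p = 0.2, where 3 against 3 libraries allow no p under 0.1).

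All 7 motor genes had a negative change, and 4 had groups that did not overlap (14.9% of all genes with CPL lower). KIF11, the plus-end motor that pushes spindle poles apart, had 40.2, 39.0 and 35.5 FPKM in control and 21.8, 29.7 and 33.3 FPKM in CPL (−0.44 ± 0.16, limma adjusted p = 0.191), and −0.27 without CPL replicate 1, a move of over 1.5 times. KIF20A, a motor of the central spindle and cytokinesis, had 27.6, 28.2 and 30.5 FPKM in control and 21.8, 22.3 and 23.0 FPKM in CPL. Its 3 CPL values were tight, and the change of −0.35 ± 0.09 (limma adjusted p = 0.107) was close to that with the GC trend removed (−0.34, 0.0161) and to that without CPL replicate 1 (−0.33, 0.0527). KIF23, the motor subunit of centralspindlin, had 14.9, 14.4 and 13.2 FPKM in control and 9.04, 11.98 and 12.1 FPKM in CPL (−0.34 ± 0.13, limma adjusted p = 0.215, and 0.0488 with the GC trend removed), and −0.22 without CPL replicate 1, again a move of over 1.5 times. KIF2C, which depolymerises microtubules at centromeres, was the most abundant motor in control and had, as deposited, the smallest change of the 7 (KIF14 had it with the GC trend removed and without CPL replicate 1), with 39.1, 37.0 and 39.5 FPKM in control and 35.3, 35.2 and 37.3 FPKM in CPL. Its groups overlapped and the 95% interval of its change was −0.30 to 0.11. KIF4A, KIF14 and KIF20B had changes of −0.27, −0.14 and −0.37, and of these KIF4A had groups apart. Without CPL replicate 1 the 3 changes were −0.17, −0.02 and −0.19, each a move of over 1.5 times.

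Of the 5 spindle assembly factors all had a negative change, and 3 had groups apart (14.9% of all genes with CPL lower). TPX2 (chromosome 20, 31739271 to 31801805), which activates AURKA on spindle microtubules, was abundant and clearly separated, with 80.7, 83.0 and 84.9 FPKM in control and 55.4, 62.3 and 68.9 FPKM in CPL. It had the smallest adjusted p of all members as deposited (−0.41 ± 0.11, limma adjusted p = 0.102) and fell with the GC trend removed (−0.38, 0.0196). DLGAP5, a kinetochore-fibre stabiliser, had 28.6, 28.8 and 27.3 FPKM in control and 15.0, 22.4 and 23.8 FPKM in CPL (−0.48 ± 0.17, limma adjusted p = 0.19, and 0.0308 with the GC trend removed). Without CPL replicate 1 its change was −0.28, so that library moved it by over 1.5 times. NUSAP1 was apart by a narrow gap, and HMMR and ASPM overlapped, with 95% intervals that crossed 0. The changes of NUSAP1, HMMR and ASPM were −0.26, −0.25 and −0.18 as deposited. Without CPL replicate 1 they were −0.12, −0.03 and −0.01, so most of each change came from that library. Over 62.2% of the exon length of NUSAP1 another gene on the same strand, AC087721.2, is annotated, and no source used here says how shared reads were counted.

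Cytokinesis was covered by few usable genes. ECT2, an exchange factor needed to form the cleavage furrow, had 8.62, 8.78 and 7.57 FPKM in control and 5.13, 6.68 and 6.99 FPKM in CPL, with groups apart (−0.37 ± 0.13, limma adjusted p = 0.193, and 0.0376 with the GC trend removed). ANLN, the actin-binding scaffold anillin, had 17.6, 19.1 and 16.1 FPKM in control and 11.97, 14.9 and 17.7 FPKM in CPL, where replicate 3 lay among the controls. Its change moved from −0.24 to −0.11 without CPL replicate 1. PRC1, which bundles antiparallel microtubules of the midzone, was listed at only 0.224 to 0.667 FPKM in the 6 libraries. It had 21 to 54 reads per library, under the filter, and 57.6% of its exon length is shared on the same strand with AC068831.7, which was at 2.39 to 2.79 FPKM. The part of this overlap in the low level of PRC1 was not tested, and no change is given for it.

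Anaphase onset depends on CDC20, which activates the anaphase-promoting complex, and on securin, encoded by PTTG1, its substrate. CDC20 had 84.3, 82.7 and 91.4 FPKM in control and 88.8, 68.0 and 61.4 FPKM in CPL. CPL replicate 1 lay among the controls and the other CPL libraries far under them, so that the change moved from −0.26 ± 0.14 (limma adjusted p = 0.37) to −0.41 without that library (0.0392), to −0.15 without CPL replicate 3 (0.54), and was −0.39 with the GC trend removed (0.0103). CDC20 has a GC content of 57.9%. PTTG1 had 55.6, 57.5 and 59.5 FPKM in control and 44.0, 48.5 and 45.1 FPKM in CPL, with groups apart, and its change was −0.32 ± 0.09 (limma adjusted p = 0.12), or −0.32 with the GC trend removed (0.0222).

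TOP2A, the topoisomerase that disentangles sister chromatids, was the most abundant member. It had 104.6, 103.4 and 86.8 FPKM in control and 61.9, 77.0 and 84.6 FPKM in CPL, with a narrow gap between the groups (−0.40 ± 0.14, limma adjusted p = 0.185, and 0.0381 with the GC trend removed). MKI67, the proliferation antigen that coats mitotic chromosomes, had 16.6, 15.5 and 14.9 FPKM in control and 12.1, 12.6 and 14.1 FPKM in CPL, with groups apart and limma adjusted p of 0.0523 once the GC trend was removed. FOXM1, the transcription factor that activates many of these genes in G2, did not share the lower levels. It had 15.0, 13.7 and 15.2 FPKM in control and 15.6, 14.9 and 14.2 FPKM in CPL, a change of 0.02 with a 95% interval from −0.20 to 0.25, and its sign turned when the GC trend was removed (−0.0605). On the other strand, ITFG2 covers 15.9% of the exon length of FOXM1 and was at 3.94 to 5.63 FPKM.

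The 28 tested members with TTTGAA had a median change of −0.27 and the 9 without it −0.32, and the 31 with CCAAT had −0.30 against −0.25 for the 6 without. After GC removal 17 of all 42 members were called lower, against 6.57% of all tested genes. Among members with a promoter entry these were 15 of the 31 with CCAAT and 0 of the 6 without it. For TTTGAA they were 11 of 28 with it and 4 of 9 without. The median changes in that fit were −0.25 with CCAAT and −0.16 without, and −0.23 with TTTGAA and −0.25 without. The classes without a motif are small. These differences were not tested.

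Other genes of cell division were read from 7 lists that covered further kinases, kinetochore and spindle genes, cytokinesis, condensin and cohesin, the anaphase-promoting complex, and the MuvB, DREAM and NF-Y factors. Of 123 such genes 121 were tested, and 0 were lower and 1 was higher at a limma adjusted p under 0.05 (0.665% and 1.09% of all genes). Neither count is above the share of all genes. A negative change was seen for 92 (50.8% of all), and the median change was −0.13. The gene called higher was HJURP, the chaperone that loads CENPA at centromeres, which had 39.7, 36.4 and 37.1 FPKM in control and 52.9, 55.9 and 51.0 FPKM in CPL. All CPL libraries were above all controls (0.49 ± 0.09 SE, limma adjusted p = 0.0488, and 0.00409 with the GC trend removed). The call was lost without control replicate 1, 2 or 3 (limma adjusted p = 0.178, 0.21 and 0.223) and without CPL replicate 2 or 3 (0.197 and 0.0622). The ratio of CENPA to HJURP was 0.428, 0.433 and 0.422 in control and 0.267, 0.257 and 0.232 in CPL, with no overlap (exact permutation p = 0.1, the smallest possible, and 0.167 adjusted over 5 pairs).

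After removal of the GC trend 9 of these 121 genes fell and 2 rose, against 6.57% and 7.16% of all genes, so the first count is near the background and the second under it. With CPL replicate 1 left out as well 6 were called lower (4.67% of all genes), and with a replicate block and the GC trend removed 3 (541 of 13074 genes). These counts too are near the background or under it. SKA2 and CENPM of the kinetochore fell by 0.35 and 0.43, PSRC1 and GTSE1 of the spindle by 0.49 and 0.30, and ARHGAP11A of the cytokinesis list by 0.33. The condensin subunit NCAPD2 fell by 0.23, and FBXO5, the inhibitor of the anaphase-promoting complex known as EMI1, by 0.34. Among the DREAM factors TFDP1 and E2F4 fell by 0.32 and 0.26 and LIN54 rose by 0.23, while MYBL2, which encodes B-MYB, was at 69.1 ± 6.6 FPKM in control and 72.6 ± 7.0 FPKM in CPL (SD, n = 3 each, limma adjusted p = 0.775 as deposited). Their limma adjusted p ran from 0.00738 for PSRC1 to 0.0462 for LIN54.

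Genes of S phase, the preceding stage of the cycle, had a median change of −0.10 over 34 genes, with 2 called lower (0.665% of all genes) and 13 with groups apart below the controls (14.9% of all). The 2 were MCM7 and MCM3, subunits of the replicative helicase, with changes of −0.77 and −0.56, more negative than that of any G2 or mitosis member. These values are as deposited. With the GC trend removed, 5 of the 34 were called lower (6.57% of all genes). The count stayed at 2 when the first CPL library was dropped. It was 1 under quantile normalization or when the third was dropped. It was 0 under the replicate block alone, with no filter, and when the second CPL library or any control was dropped. Few genes of any kind were called lower in the fits with 0, from 1 to 15. The difference between the S phase and the mitosis lists was not tested. CDKN1A, which encodes the CDK inhibitor p21, was at 1.75, 2.17 and 2.03 FPKM in control and 12.01, 9.30 and 6.06 FPKM in CPL replicates 1, 2 and 3. All CPL libraries were above all controls and CDKN1A rose (1.72 ± 0.21 SE, limma adjusted p = 0.0163). Its part in the members' levels was not tested.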

How the data were processed

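Polyadenylated RNA of 6 SET-2 samples was sequenced as single-end reads on a DNBSEQ instrument after a TruSeq preparation, per the labels' protocols, which state nothing on strand. Sample titles gave the groups and replicates, and the description label tied each column to its sample. The authors deposited 1 table of FPKM values. The unit is named by no header and was read from the values, since values scaled by exon length (GENCODE 29, exons merged) came out as whole reads (within 0.1) for 98.7% to 99.0% of values worth up to 20 reads. The authors used GRCh38 with RSEM 1.2.12, Bowtie2 2.2.5, DESeq2 1.4.5 and HISAT2 2.0.4, per the submitters' processing notes, which assign no roles. FPKM depends on the library total, so abundant genes can lower all others.

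Values were set to log2(FPKM + 1), which understates changes of low genes. Genes that reached 1 FPKM in 3 or more libraries were fitted with limma 3.58.1 (R 4.3.3, trend and robust, group as the only term, two-sided, Benjamini-Hochberg over 13092 genes, threshold 0.05). The GC trend was removed by loess (span 0.5) of each library's difference from the mean of all libraries on the GC content of the longest GENCODE transcript. Within groups, libraries differed beyond sampling noise (chi-square over its degrees of freedom, 7.81 to 56.3), so each library is 1 sample. The scripts were tested on simulated data with planted changes larger than those of any member. That test therefore does not tell how many changes of the members' size would be found. Ratios used an exact permutation test. Python 3.11.15, pandas 2.3.3 and matplotlib 3.10.9 were used.

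Members, lists and alternatives were chosen with earlier results of these data known. Every member is accounted for. Values in every library are given for the most abundant member and that of smallest p in each role group, for 12 members of general interest and for those called with or without the GC trend, and further members are described by range or were added after their values were seen.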

Additional observations from a re-analysis of the deposited data

How the results depend on the processing

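As deposited, 0 members were called lower (0.665% of all genes) and 0 higher (1.09%). The median change was −0.27, and 22 members had all CPL libraries below all controls (14.9% of all genes). The count called lower was 17 with the GC trend removed (6.57% of all genes) and 7 with CPL replicate 1 left out as well (4.67%). It was 8 with a replicate block and the GC trend removed (541 of 13074 genes). When 1 library was left out it was 0 to 1, and the 1 call, without CPL replicate 1, was near the background (2.73% of all genes). The other alternatives (pseudocounts 0.1 and 0.01, no filter or at least 5 FPKM, quantile normalization, median centring, and limma without trend and robust moderation) called 0, and no alternative called a member higher. The count with all CPL libraries below all controls ranged from 16 with quantile normalization (1839 of 13092 genes) to 31 without CPL replicate 3 (2939 of 12828 genes). Such separation is easier to reach when 1 library is left out, so these counts are not like for like. The median change ranged from −0.35 without CPL replicate 3 to −0.20 with the GC trend and CPL replicate 1 both removed. Each median lay within 1 SD between libraries (0.13) of the value as deposited. That SD was pooled within groups and includes CPL replicate 1 (library medians of −0.50, −0.23 and −0.15 in CPL replicates 1, 2 and 3). It is a wide band beside a median of −0.27, so lying within it cannot show that the median was stable.

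Of the 26 members set by the naming rule, only FOXM1 changed sign. Its change was −0.0605 with the GC trend removed, with and without the block, −0.0211 without control replicate 2 and −0.0054 without CPL replicate 1, and it ran from −0.0211 to 0.0553 over the fits that left out 1 library. The replicate block alone called 0 members and left the median at −0.27. The groups share replicate numbers in titles and column names, which do not say whether same-numbered libraries are pairs. As deposited, the correlations of same-numbered deviations were 0.0836, 0.0885 and −0.168, and those of other pairs ran from −0.229 to 0.222. The GC trends of the libraries enter these correlations, so they cannot decide on pairing. Under the block without GC removal HJURP lost its call (limma adjusted p = 0.122), as it did without the filter (0.147) and without trend and robust moderation (0.0672). Depth was not limiting for the 42 tested members, with at least 218 reads each, but PRC1 could not be assessed.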
